A study of Mus musculus with 10 samples.

Results

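Edaradd, Tmem26, Ehd2, Frat1, Dmwd, Hmgcll1 and Csrp2 are 7 genes of the 19937 measured in splenic B cells that were chosen because their RNA was lower in B cells of mice with a Bcl6 transgene than in wild-type B cells. They were picked on these same arrays, so their differences from wild-type are given as a description. Where calls in these comparisons are counted, they describe how the genes were chosen and are not evidence of a change. The cells were B220+CD22+ B cells sorted by FACS from spleen and profiled on 10 Affymetrix Mouse Gene 1.0 ST arrays, which measure each gene with a set of short probes (a probe set). The floxed group (3 arrays) came from mice with an intact Sca1-Bcl6 transgene, in which loxP sites flank mouse Bcl6 with IRES-eGFP in the vector pLy6 (Ly6a encodes Sca1, a surface marker of blood stem cells and some lymphocytes). The delta group (4 arrays) came from such mice bred to mb1-Cre, a recombinase driven from the Cd79a locus in the B lineage, so these cells descend from cells in which Cre could remove the cassette. The wild-type group (3 arrays) carried neither, and the strain of all arrays is labelled CBAxC57BL/6J. The labels do not give age, sex, or which of the independent transgenic lines an array came from, nor whether each array is a separate animal, so tests measure the spread between these samples.

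The 7 genes do not belong to a common pathway. Edaradd encodes the death-domain adaptor that links the ectodysplasin receptor EDAR to NF-kappaB in skin appendages, and Frat1 encodes a protein that binds the kinase GSK3 and favours Wnt signalling. Ehd2 encodes a membrane-remodelling ATPase best known at the neck of caveolae, Tmem26 a transmembrane protein used as a marker of beige fat cells, and Hmgcll1 an extramitochondrial enzyme that cleaves HMG-CoA. Csrp2 encodes a LIM-domain protein of smooth muscle and the actin cytoskeleton. Dmwd encodes a WD-repeat protein and lies beside Dmpk, the kinase gene with the repeat that causes myotonic dystrophy in humans. None of the 7 is a standard marker of B cells.

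Each gene had 1 probe set that carried its symbol alone. Values are the authors' RMA intensities, a background-corrected and normalized brightness on a linear scale, and changes are differences of group means of log2 intensity. The median intensity per array was 139 to 145, and the arrays correlated across genes at 0.993 to 0.997 within groups and 0.989 to 0.996 between groups. Of the B cell markers 7 of 8 were measured, and their mean log2 level per array was 12.94 to 13.02 in floxed, 12.87 to 12.93 in delta and 12.94 to 13.03 in wild-type arrays. Of these 7 markers 1 was called in any comparison, Cd79a, the signalling chain gene whose locus carries Cre in delta mice, which was lower in delta against wild-type (log2 change -0.48, limma adjusted p = 0.0427). Its change was -0.51 to -0.46 with any 1 array left out, but it passed in only 4 of those 10 fits (adjusted p = 0.0348 to 0.211), failing without floxed 1 or 3, delta 1 or 3, or wild-type 1 or 2. In delta against floxed Cd79a was at -0.40 and was not called (limma adjusted p = 0.123). Its log2 levels were 12.82 to 12.89 in delta and 13.21 to 13.35 in floxed arrays, without overlap, as in 6.96% of all genes in either direction. The groups differed in sex pattern, read from Xist and from Y-linked genes: 3 of 3 floxed arrays, 1 of 4 delta arrays (delta 1) and 0 of 3 wild-type arrays had a male pattern.

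Ehd2 and Dmwd, both on chromosome 7, had the highest Pearson correlation of levels among the pairs (0.98), which includes the difference from wild-type. In deviations from group means they were at 0.78, as were Frat1 and Csrp2. Edaradd had one of the larger differences from wild-type. The 250 bases before the annotated start sites of Ehd2, Dmwd and Edaradd are shown (RefSeq, GRCm38.p6, 5′ to 3′ on the gene's strand). Capitals mark matches, on either strand, to GGGCGG (the GC box) or CANNTG (the E-box), which do not overlap here. The windows are chr7:15967536-15967785 on the minus strand for Ehd2, chr7:19075950-19076199 on the plus strand for Dmwd and chr13:12520451-12520700 on the minus strand for Edaradd.
Ehd2: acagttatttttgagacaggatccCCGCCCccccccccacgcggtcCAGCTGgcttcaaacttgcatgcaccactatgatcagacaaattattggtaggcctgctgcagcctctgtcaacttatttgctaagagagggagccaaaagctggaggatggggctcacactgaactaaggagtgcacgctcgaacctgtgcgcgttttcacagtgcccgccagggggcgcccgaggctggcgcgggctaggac
Dmwd: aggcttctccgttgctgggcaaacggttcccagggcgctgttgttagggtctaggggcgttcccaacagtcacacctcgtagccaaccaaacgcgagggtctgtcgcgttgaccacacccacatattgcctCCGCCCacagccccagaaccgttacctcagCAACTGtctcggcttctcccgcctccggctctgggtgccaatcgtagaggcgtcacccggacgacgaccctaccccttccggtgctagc
Edaradd: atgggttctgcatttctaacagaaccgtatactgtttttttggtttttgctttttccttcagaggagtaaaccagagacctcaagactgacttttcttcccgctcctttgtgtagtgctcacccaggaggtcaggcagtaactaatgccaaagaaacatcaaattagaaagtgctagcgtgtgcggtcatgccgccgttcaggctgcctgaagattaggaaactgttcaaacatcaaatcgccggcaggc

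Ehd2 and Dmwd each held 1 GC box and 1 E-box, and Edaradd held neither. Of the genes not shown, Tmem26 held 2 GC boxes and 1 E-box, Hmgcll1 held 2 E-boxes and no GC box, and Frat1 held neither. Of all 32851 promoter windows of this length, 32.7% held the GC box and 66.2% the E-box. The GC content was 58.0% for Ehd2, 62.4% for Dmwd and 46.0% for Edaradd, against a median of 52.4% over all windows. A promoter entry was matched for 6 of the 7 genes, Csrp2 being the exception. The palindrome TTCNNNGAA, a half-site pair to which BCL6 and STAT factors can bind, was in 0 of these 6 windows and in 7.02% of all windows, which says only that these letters are not in these 250 bases.

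Edaradd, the receptor adaptor, had intensities of 456, 440 and 462 in floxed arrays and 453, 609, 411 and 530 in delta arrays, against 788, 904 and 819 in wild-type arrays. The floxed arrays lay close together, the delta arrays were more spread, and all of them were below every wild-type array. The floxed mean was 54.2% of the wild-type mean (log2 change -0.88) and the delta mean 59.2% (-0.76).

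Frat1, the GSK3-binding gene, had intensities of 379, 346 and 351 in floxed arrays and 312, 395, 341 and 331 in delta arrays, against 481, 541 and 524 in wild-type arrays. The highest transgenic array was delta 2, and it still lay 0.29 below the lowest wild-type array on the log2 scale. Floxed arrays averaged 69.7% and delta arrays 66.7% of wild-type (log2 changes -0.52 and -0.58).

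Ehd2, the membrane ATPase gene, was 188, 218 and 200 in floxed arrays and 202, 205, 222 and 196 in delta arrays, against 321, 304 and 284 in wild-type arrays. The transgenic arrays kept within a narrow band well under the wild-type ones, with log2 changes of -0.59 in floxed and -0.55 in delta arrays.

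Tmem26, the transmembrane protein gene, was 141, 165 and 149 in floxed arrays and 142, 145, 135 and 170 in delta arrays, against 266, 230 and 214 in wild-type arrays. Floxed 2 and delta 4 were the highest of the transgenic arrays and did not reach the wild-type range. The log2 changes of Tmem26 were -0.64 in floxed and -0.68 in delta arrays.

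Hmgcll1, the HMG-CoA lyase-like gene, was 53.7, 62.7 and 64.9 in floxed arrays and 62.2, 74.0, 61.7 and 51.4 in delta arrays, against 134, 107 and 87.2 in wild-type arrays. All of these lie below the median intensity per array (139 to 145). Log2 means of Hmgcll1 were 5.91 in floxed, 5.95 in delta and 6.75 in wild-type arrays, where those of the myeloid marker Mpo were 6.54, 6.55 and 6.58. How much of the Hmgcll1 signal is background was not tested. The wild-type arrays of Hmgcll1 were spread more widely (SD 0.31 on the log2 scale, n = 3) than those of Dmwd (SD 0.03, n = 3), and delta 2 came within 0.24 of the lowest of them. The log2 changes of Hmgcll1 were -0.84 in floxed and -0.80 in delta arrays.

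Dmwd, the WD-repeat gene, was 155, 172 and 158 in floxed arrays and 161, 155, 172 and 156 in delta arrays, against 219, 227 and 218 in wild-type arrays. It had the smallest change of the 7 in both groups, to 72.9% of wild-type in floxed and 72.7% in delta arrays (log2 -0.46 in each), with little spread in any group.

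Csrp2, the LIM-domain gene, was 197, 169 and 175 in floxed arrays and 201, 262, 258 and 199 in delta arrays, against 313, 424 and 322 in wild-type arrays. Delta arrays lay between the other groups: delta 1 and 4 just above the floxed range, delta 2 and 3 higher, and all 4 below wild-type. Csrp2 was at 51.4% of wild-type in floxed arrays (log2 -0.96) and at 65.2% in delta arrays (log2 -0.62).

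**Figure D1:**
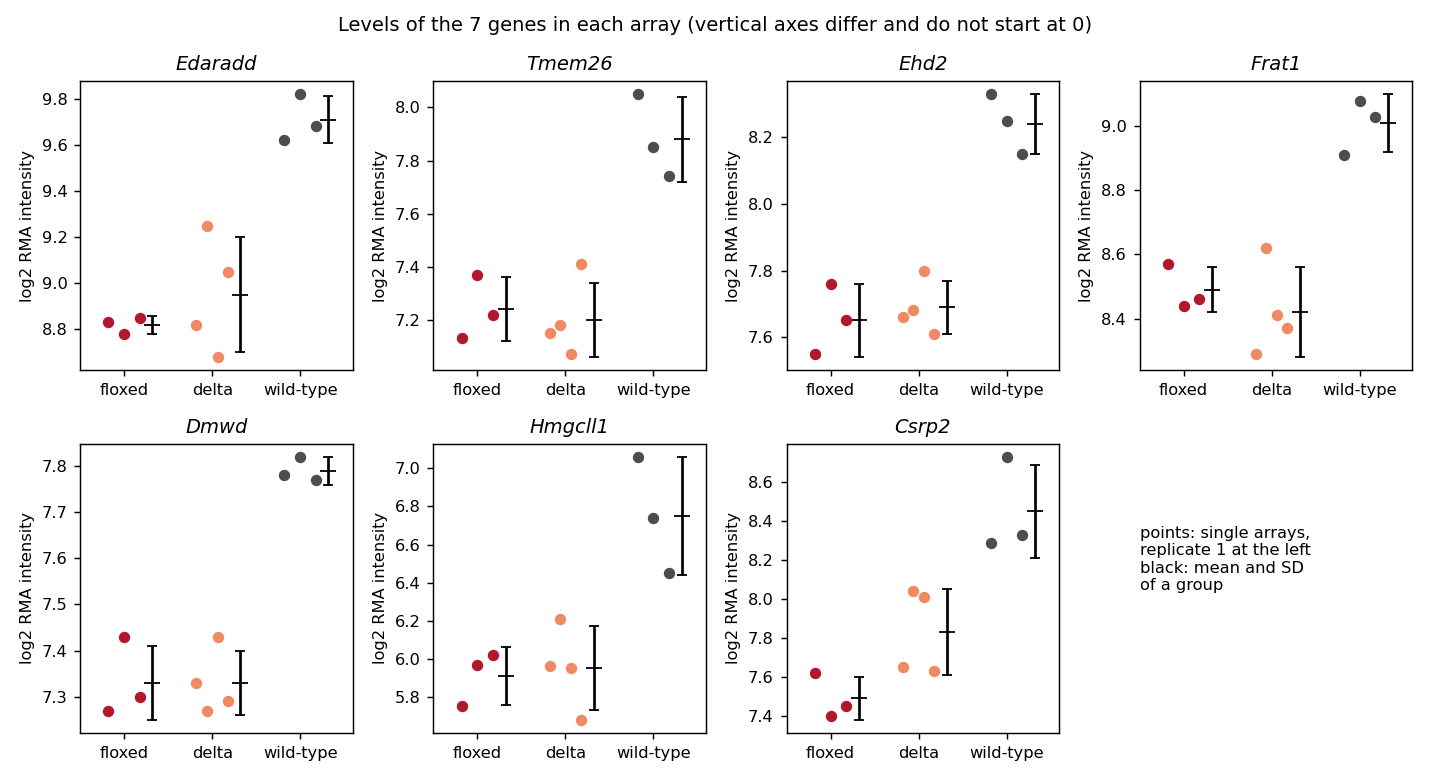
Log2 RMA intensity of each of the 7 genes (vertical axes, which differ between panels and do not start at 0) in floxed, delta and wild-type arrays, with single arrays as points and the group mean with its SD in black (n = 3, 4 and 3). In each panel all 7 transgenic points lie below the 3 wild-type points, and in Csrp2 alone the delta points all lie above the floxed points.

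All 7 transgenic arrays lay below all 3 wild-type arrays for 7 of the 7 genes, as they did for 2.48% of all genes. In floxed against wild-type, limma's fit with Benjamini-Hochberg adjustment over all genes (threshold 0.05) called 7 of the 7 lower, where 0.161% of all genes were called lower. In delta against wild-type it called 5 of the 7 lower, all but Hmgcll1 and Csrp2, where 0.0451% of all genes were called lower. The genes were picked on these comparisons, which share the wild-type arrays, so nothing is read from the counts. The median change of the 7 was -0.64 in floxed and -0.62 in delta arrays, with medians over all genes of -0.024 and -0.014. Without wild-type 2, 0 of the 7 passed in floxed against wild-type. The count there was 3, 3 and 1 without floxed 1, 2 and 3 and 2 without wild-type 1, while for delta against wild-type the count was 0 without floxed 1, floxed 3, delta 1, delta 3, wild-type 1 or wild-type 2, 1 without delta 4, 2 without floxed 2, and 3 without delta 2 or wild-type 3. Every change stayed below 0 in all of these fits. With all transgenic arrays below all wild-type arrays, leaving out 1 array could not give another sign, so nothing is read from it.

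Delta against floxed arrays compares mice with the transgene that do and do not also carry mb1-Cre, a contrast that did not choose the 7 genes, although it shares the arrays that did. Excision of the cassette was not measured here. Bcl6 itself, whose probe set does not tell transgenic from endogenous RNA, had log2 levels of 9.83, 9.82, 9.56 and 9.61 in delta arrays, 9.88, 9.80 and 9.96 in floxed arrays and 10.48, 9.87 and 9.80 in wild-type arrays. No floxed array lay above the wild-type range, but wild-type 1 alone sets its upper end. Floxed 1 and floxed 3 lay above wild-type 2 and wild-type 3. None of the 7 differed past the threshold, and 0.00502% of all genes did so in either direction, which is 1 gene, Rdh10, the retinol dehydrogenase gene (log2 -1.98, limma adjusted p = 3.23e-05). At an unadjusted p under 0.05 limma gave 1279 genes, of which Csrp2 was the 1 of the 7. Csrp2 was higher in delta than in floxed arrays by 0.34 on the log2 scale (SE 0.13, 95% interval 0.05 to 0.63, limma adjusted p = 0.736), with 4 of 4 delta arrays above all floxed arrays by a gap of 0.01, as in 6.96% of all genes in either direction.

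For the other genes the interval spans 0 and bounds the difference between delta and floxed. It ran from -0.14 to 0.13 for Dmwd, from -0.13 to 0.19 for Ehd2 and from -0.24 to 0.12 for Frat1. It ran from -0.25 to 0.18 for Tmem26, from -0.12 to 0.38 for Edaradd and from -0.28 to 0.36 for Hmgcll1. For each of these 6 genes a difference as large as its change from wild-type lies outside the interval. That change was used to choose the genes, so no conclusion is drawn from setting the interval beside it. These p-values and intervals do not show that the groups are alike.

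**Figure D2:**
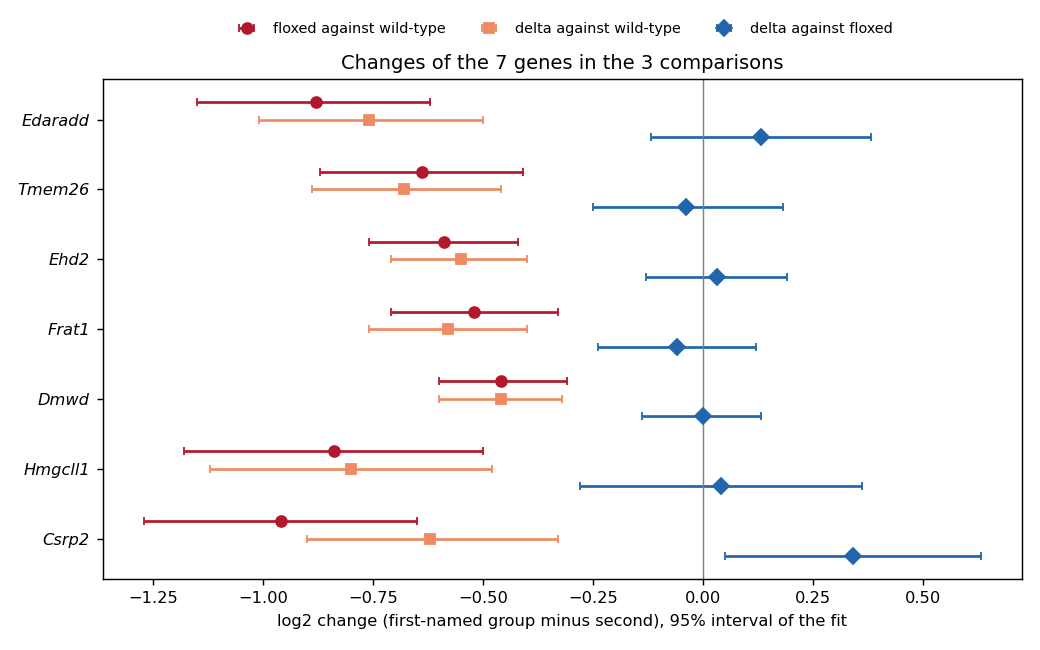
Log2 change of each of the 7 genes (horizontal axis) in floxed against wild-type (circles), delta against wild-type (squares) and delta against floxed (diamonds), with 95% intervals from the limma fit that were not adjusted for the choice of genes on the comparisons with wild-type. Circles and squares lie between -0.96 and -0.46, and the diamonds lie between -0.06 and 0.34.

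The sex pattern of the arrays moved with the groups. Among arrays of female pattern, delta 2 to 4 lay below all 3 wild-type arrays in every one of the 7 genes. This follows from the order of all arrays given above, on which the genes were picked, so it says nothing about sex. The differences of these means from wild-type were -0.46 for Dmwd, -0.54 for Frat1, -0.55 for Ehd2, -0.56 for Csrp2, -0.66 for Tmem26, -0.71 for Edaradd and -0.80 for Hmgcll1. With all 4 delta arrays the changes were -0.46 for Dmwd, -0.58 for Frat1, -0.55 for Ehd2, -0.62 for Csrp2, -0.68 for Tmem26, -0.76 for Edaradd and -0.80 for Hmgcll1. Floxed and wild-type arrays differ in sex pattern throughout, so sex and transgene cannot be told apart there. Among arrays of male pattern, delta 1 lay within the floxed range for Edaradd, Tmem26, Ehd2, Dmwd and Hmgcll1. It lay below that range for Frat1 (log2 level 8.29, against 8.44 to 8.57 in floxed arrays) and above it for Csrp2 (7.65, against 7.40 to 7.62). With sex pattern as a covariate, which rests on delta 1, all 7 changes stayed below 0 and 0 of the 7 passed the threshold in either comparison with wild-type. The change of Frat1 in floxed against wild-type was -0.34 in that fit (SE 0.14) and that of Csrp2 was -0.71 (SE 0.24).

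Correlations among the 7 genes over the 10 arrays were high in the levels, because the arrays fall into wild-type and transgenic clusters for every gene by the way the genes were chosen. Pearson's r lay between 0.69 (Tmem26 with Csrp2) and 0.98 (Ehd2 with Dmwd) over the 21 pairs, with a median of 0.87, and Spearman's rho between 0.36 and 0.85. After each array's deviation from its group mean was taken, r lay between -0.60 and 0.78, with a median of 0.12, and 14 of 21 pairs were above 0. No p is given for these descriptions.

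Some pairs deviated together and others did not. Ehd2 and Dmwd deviated together (r = 0.78), as did Ehd2 and Hmgcll1 (0.64), while Dmwd with Hmgcll1 was at 0.10. Frat1 deviated with Csrp2 (0.78) and with Edaradd (0.69), while Edaradd with Csrp2 was at 0.28. Other pairs ran against each other, as did Edaradd with Dmwd (-0.60) and Tmem26 with Csrp2 (-0.51). Delta 2 was the array in which Edaradd, Frat1 and Csrp2 were all at their highest among delta arrays, and delta 3 the one in which Ehd2 and Dmwd were. Without delta 1 the deviations of the pairs lay between -0.62 and 0.79.

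**Figure D3:**
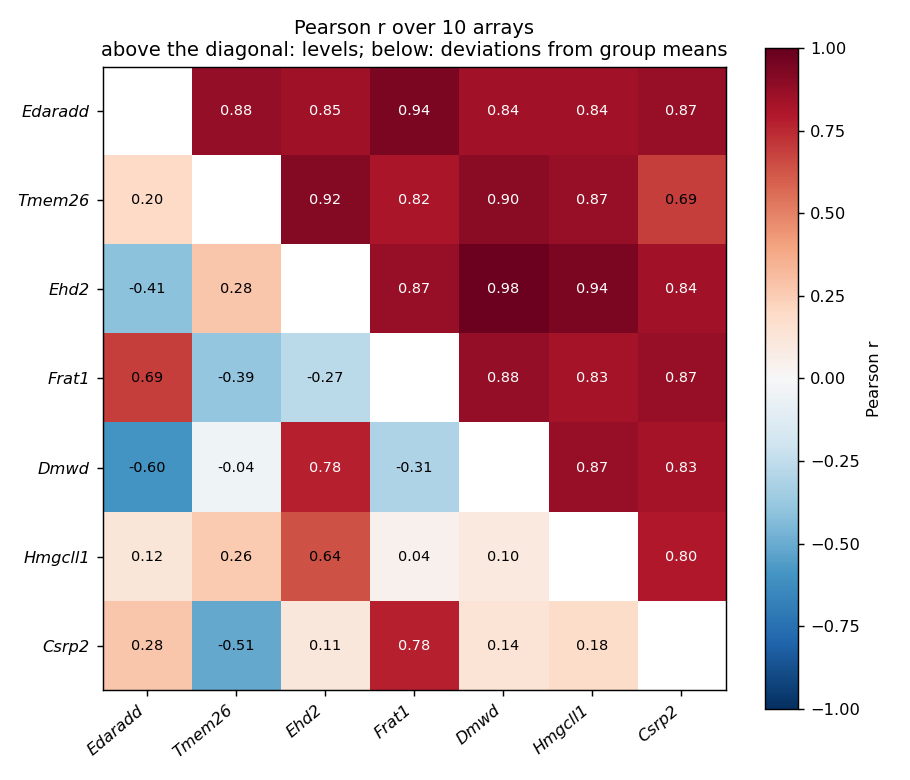
Pearson correlation over the 10 arrays for each pair of the 7 genes, from log2 levels above the diagonal and from deviations from group means below it, with colour running from -1 to 1. Levels give 0.69 to 0.98, and deviations give -0.60 to 0.78, with 0.78 for Ehd2 with Dmwd and for Frat1 with Csrp2.

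Relatives and signalling partners of 6 of the genes, listed by family and pathway (Tmem26 had no such list), were set beside them. Of 82 listed genes 71 were measured, and 0 of 71 passed the threshold in any of the 3 comparisons, where 0.552% of all genes were called in floxed against wild-type and 0.0752% in delta against wild-type, in either direction. At an unadjusted p under 0.05 limma gave 8 of the 71 in floxed against wild-type, 6 in delta against wild-type and 5 in delta against floxed. These are 11.3%, 8.45% and 7.04% of the list, against 12.8%, 7.89% and 6.42% of all genes. Their median change was -0.02 in floxed and -0.01 in delta against wild-type.

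Among the 10 measured genes around Edaradd, those of the ectodysplasin receptors were near 0: Edar was at -0.03 and -0.02 and Eda2r at 0.00 and 0.04 in floxed and delta against wild-type. Traf1, an adaptor of TNF receptors, had log2 means of 9.39 in floxed, 9.21 in delta and 8.62 in wild-type arrays (limma adjusted p = 0.0758 in floxed against wild-type). Eda, the ligand, was at 0.17 in delta against wild-type (limma adjusted p = 0.479).

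Around Frat1, whose close relative Frat2 is its neighbour on chromosome 19, 15 genes were measured. Frat2 was at 0.03 in floxed and -0.07 in delta against wild-type. Lef1, the transcription factor that acts with beta-catenin, had log2 levels of 7.25, 6.94 and 7.34 in floxed arrays and 7.02, 7.34, 6.99 and 7.10 in delta arrays, against 7.61, 7.79 and 7.77 in wild-type arrays. All transgenic arrays of Lef1 were below all wild-type arrays, and its changes of -0.54 and -0.61 had limma adjusted p-values of 0.0649 and 0.0968. Tcf7l2, of the same family as Lef1, was at -0.22 and -0.18 (limma adjusted p = 0.228 and 0.534).

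Around Ehd2, 12 genes were measured, and its paralogues spanned 0, with Ehd1 at 0.14, Ehd4 at -0.15 and Ehd3 at -0.27 in floxed against wild-type. In delta against wild-type they were at 0.14, -0.26 and -0.48. Caveolin and cavin genes, the coat proteins of caveolae, lay between -0.16 (Cavin3) and -0.04 (Cav2) in floxed against wild-type. Around Dmwd, 12 genes were measured, of which its neighbour Dmpk was at -0.26 in floxed and -0.18 in delta arrays against wild-type (limma adjusted p = 0.378 and 0.757) and Wdr48, a partner of deubiquitinating enzymes, at -0.11 and -0.01.

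Around Hmgcll1, 10 genes of HMG-CoA, ketone body and leucine metabolism were measured. Oxct1, which activates ketone bodies for use, was at 0.34 in floxed and 0.15 in delta against wild-type (limma adjusted p = 0.105 and 0.703), and Bdh1, the mitochondrial hydroxybutyrate dehydrogenase, at 0.22 and 0.00. Around Csrp2, 12 genes were measured. Its paralogue Csrp1 was at -0.01 and 0.02. Actn1, an actin cross-linker, was at 0.71 in floxed and 0.21 in delta against wild-type (limma adjusted p = 0.133 and 0.861), and Lmo4, a LIM-only regulator, at -0.05 and -0.21.

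**Figure D4:**
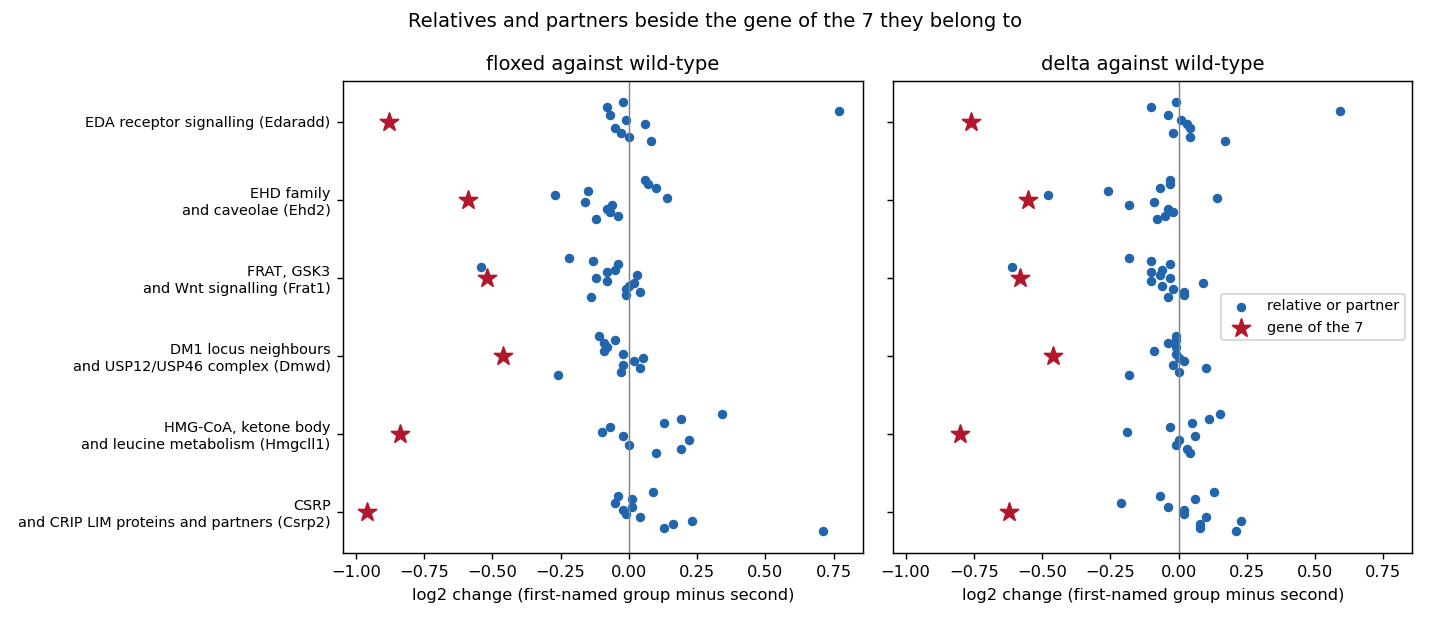
Log2 change (horizontal axis) of the genes listed as relatives or partners (blue points, spread vertically for legibility) and of the gene of the 7 they belong to (red star), in floxed against wild-type and in delta against wild-type. The stars lie between -0.96 and -0.46, while the list medians lie between -0.06 and 0.12.

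The 7 genes lie on chromosomes 7, 9, 10, 13 and 19, with Ehd2 and Dmwd on 7 and Tmem26 and Csrp2 on 10. Of the 28 measured genes nearest to them (the closest pair on each side), 0 passed limma's threshold against wild-type in floxed or in delta arrays, and 7 of the 28 in floxed and 2 in delta had an unadjusted p under 0.05. These are 25% of the neighbours in floxed and 7.14% in delta, against 12.8% and 7.89% of all genes. Their log2 changes ran from -0.30 to 0.53 in floxed and from -0.22 to 0.19 in delta against wild-type, with medians of 0.02 and 0.00.

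Genes whose levels over the 10 arrays were most like those of the 7 were taken by Pearson's r among 14111 genes, as a description that includes the difference from wild-type. In deviations from group means r was lower for each of these pairs, from 0.44 (Dmwd with Tfpi) to 0.91 (Hmgcll1 with Rtp4). Cdk6 was at 0.54 with Ehd2 and at 0.89 with Hmgcll1 in these deviations. Edaradd was most like Rmnd5a, a ubiquitin ligase subunit gene (r = 0.963), Cebpg, a bZIP transcription factor gene (0.946), and Dpp4, the peptidase CD26 (0.943). Frat1 was most like Limd2 (0.963), Lef1 (0.950) and Cebpg (0.948). Ehd2 was most like the cyclin-dependent kinase gene Cdk6 (0.945), the histone methyltransferase gene Ezh2 (0.934) and the pantothenate kinase gene Pank3 (0.925). Hmgcll1 was also most like Cdk6 (0.976), followed by Rtp4 (0.948) and Irf7 (0.933), both induced by interferon.

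Tmem26 was most like the mitochondrial peptidase gene Atp23 (0.945), St3gal5 (0.921), which makes the ganglioside GM3, and the ubiquitin ligase gene Nedd4 (0.907). St3gal5 had a larger difference than any of the 7, with log2 means of 7.07 in floxed and 7.09 in delta arrays against 9.10 in wild-type arrays. Dmwd was most like the DNA repair gene Tdp2 (0.942), the coagulation inhibitor gene Tfpi (0.930) and the cytidine deaminase gene Apobec1 (0.918). Csrp2 was most like Paip2, a translation regulator gene (0.937), the retinaldehyde reductase gene Dhrs3 (0.934), and the planar polarity gene Vangl2 (0.931). Dhrs3 shared the order of Csrp2, with log2 means of 7.06 in floxed, 7.87 in delta and 8.94 in wild-type arrays.

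The mean levels of some lists of markers of other cells and stages also differed in range between groups, although Cd93 was the only single marker of these lists past the threshold. In sorted bulk cells a change in the number of cells of a type and a change in RNA per cell cannot be told apart. The mean log2 level of the 8 immature or transitional B cell markers, all measured, was 7.28 to 7.41 in floxed and 7.16 to 7.44 in delta arrays, against 7.51 to 7.80 in wild-type arrays. Of these 8, 1 was called in floxed against wild-type, Cd93, a surface receptor of early and transitional B cells, and 0 in delta against wild-type. Over all genes 0.552% and 0.0752% were called in either direction. At an unadjusted p under 0.05 limma gave 2 of the 8 in each of these comparisons, Cd93 and Vpreb3. That is 25% of the markers, against 12.8% of all genes in floxed and 7.89% in delta. Cd93 had log2 levels of 6.68, 6.57 and 6.92 in floxed arrays and 7.09, 7.37, 7.06 and 6.50 in delta arrays, against 8.27, 8.88 and 7.77 in wild-type arrays. Vpreb3 was at -0.60 and -0.64 and Cd24a at -0.18 and -0.24 in floxed and delta against wild-type. Rag1, Rag2, Dntt, Igll1 and Vpreb1, which define precursors, lay between -0.22 and 0.07. The part of such cells in the lower levels of the 7 genes was not tested.

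Markers of T cells (7 of 8 measured) had array means of 7.52 to 8.11 in floxed and 7.32 to 7.76 in delta arrays, against 7.29 to 7.57 in wild-type arrays. NK cell markers (6 of 6) were at 6.21 to 6.46 and 5.82 to 6.32, against 5.85 to 5.93 in wild-type arrays, and myeloid markers (8 of 8) at 6.96 to 7.43 and 6.83 to 7.37, against 6.69 to 6.74. Within these lists the markers were mixed. Against wild-type, myeloid markers changed by -0.26 (Cd14) to 1.91 (Adgre1) in floxed and by -0.23 (Csf1r) to 1.35 (Adgre1) in delta, with medians of 0.15 and -0.02. NK cell markers changed by 0.00 to 1.40 (Il2rb) in floxed and by -0.27 (Gzma) to 0.69 (Il2rb) in delta, with medians of 0.24 and 0.00. Erythroid markers (4 of 7) were at 7.38 to 7.79 in floxed and 6.60 to 7.20 in delta arrays, against 6.78 to 7.21 in wild-type arrays. Endothelial and stromal markers (7 of 7), of interest because Ehd2 and Csrp2 are best known in such cells, were at 7.32 to 7.44 in floxed and 7.29 to 7.42 in delta arrays, against 7.37 to 7.45 in wild-type arrays. Of these 32 markers of other lineages, 0 passed the threshold in limma in any comparison, with 12 at an unadjusted p under 0.05 in floxed against wild-type, 3 in delta against wild-type and 11 in delta against floxed. These are 37.5%, 9.38% and 34.4% of the markers, against 12.8%, 7.89% and 6.42% of all genes. The part of such cells in the results was not tested.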

How the data were processed

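Expression was measured on 10 arrays: 3 floxed, 4 delta and 3 wild-type. The deposited values are the authors' intensity for each probe set, made with RMA per the submitters' processing notes. They lie on a linear scale (4.46 to 26808). Neither the RMA version and software nor the annotation build is given in the sources used here.

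Log2 was taken. Of 34760 probe sets, 21640 carried 1 gene symbol in the platform annotation, 1321 several and 11799 none. For the 954 genes with several probe sets the one with the highest mean was kept, which left 19937 genes. Limma 3.58.1 (R 4.3.3) fitted group means over all 10 arrays with lmFit and eBayes (11.3 degrees of freedom in total, 4.32 of them prior). Tests were two-sided, adjusted by Benjamini-Hochberg over all genes, with a threshold of 0.05. The fit was tested on simulated data. Arrays carry no counting error, so their number limits the precision. Probe-level data were not analysed here.

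The 7 genes and the gene lists were chosen with earlier results of these data known. Named relatives are those past the threshold or else the 2 with the smallest p of each list. Direct paralogues, receptors, neighbours and precursor markers fall outside that rule and were picked with their values in view, as was Rdh10. The most alike genes are the 3 with the highest r, leaving out predicted genes and the lowest 25% of genes by mean level. Alternatives covered normalization, dim genes, gene unit, prior, weights, arrays in the fit, replicate number and sex pattern.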

Additional observations from a re-analysis of the deposited data

How the results depend on the processing

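The median change of the 7 genes kept its direction against wild-type in all 20 alternatives, at -0.71 to -0.57 in floxed and -0.68 to -0.55 in delta, and lay between -0.02 and 0.07 in delta against floxed. The genes were picked on the comparisons with wild-type, and all transgenic arrays lay below all wild-type arrays. Leaving out 1 array could not reverse that direction, so the kept direction is not evidence of a change. Counts of called genes moved more. In floxed against wild-type, limma called 110 genes, and 178 with arrays centred on their medians, 170 without the dimmest genes, 208 with array weights, 193 with 2 groups alone, 188 with the replicate block and 2 with sex pattern as a covariate. Leaving out 1 array gave 18 to 240. In delta against wild-type it called 15, and 3 with median centring, 0 with every probe set kept (1755 at an unadjusted p under 0.05), 9 with trend and robust options, 0 with 2 groups alone (1744 unadjusted), 6 with the replicate block and 3 with sex pattern. Leaving out 1 array gave 0 to 23. In delta against floxed it called 1, and 3 with trend and robust options, 2 with 2 groups alone and 2 with the replicate block. Leaving out 1 array gave 1 to 10. Of the 7 genes, 7 were called in floxed and 0 in delta against wild-type under the replicate block. Deviations of same-numbered arrays correlated at -0.08 to 0.12 over 9 pairs, which cannot settle whether the replicate numbers pair the samples. In delta against wild-type 0 of the 7 were also called with median centring, every probe set kept or 2 groups alone. Cd79a in delta against wild-type also missed the limma threshold with every probe set kept, 2 groups alone, the replicate block and sex pattern (adjusted p = 0.0513, 0.0784, 0.116 and 0.0677). The causes were not tested.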
